A study of Caenorhabditis elegans with 36 samples.

Results

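The genes described here encode enzymes of the tricarboxylic acid (TCA) cycle and subunits of the mitochondrial respiratory chain of Caenorhabditis elegans. They were chosen by name: each of 37 listed genes was read by the probe set annotated with its symbol alone, and where several qualified, by the one with the highest mean over all arrays. Of the 37 genes, 36 were measured in this way, out of 17118 genes that had a probe set of their own, and nuo-3 was not analysed here. The 36 comprised 3 subunits of pyruvate dehydrogenase, 14 enzymes and subunits of the cycle, 6 subunits of complex I, 4 of complex II, 4 of complex III with cytochrome c, and 5 of ATP synthase. A probe set marked as matching more than one transcript read 23 of them, and 17 had more than 1 probe set to choose from.

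Pyruvate dehydrogenase passes carbon from glycolysis into the cycle as acetyl-CoA, and the cycle oxidizes it while loading electrons onto NADH and succinate dehydrogenase. Complexes I and II hand those electrons to ubiquinone, complex III and cytochrome c carry them on to complex IV, and ATP synthase uses the resulting proton gradient. Worms with mutations in several of these genes, among them isp-1, gas-1, mev-1 and nuo-6, are known for an altered lifespan or altered resistance to oxidative stress.

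Total RNA of whole synchronized first-stage (L1) larvae was measured on 36 Affymetrix C. elegans Genome Arrays, each read in a single colour. Larvae were of the wild type N2 or carried a mutation in daf-16, in daf-2, or in both (daf-2;daf-16, here the double mutant), and were left untreated, irradiated with ultraviolet light (UV), or starved. DAF-2 is the insulin/IGF receptor of the worm, and it restrains the FoxO transcription factor DAF-16. Most of the 12 groups held 3 arrays, while there were 2 for starved daf-16 and 4 for the starved double mutant. One protocol text stands with all samples, in which larvae spent 4 h on food before UV and another 6 h before harvest. The mutant alleles, the UV dose and the handling of starved larvae were not given in the sources used here. Whether replicate arrays represent separate cultures is nowhere stated, so the p-values speak only to the spread among these samples, which may be technical. Precision is limited by how few arrays each group has.

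A set of 3 arrays stood apart from the others of their groups. The standard deviation of the difference between 2 arrays over all probe sets was 0.358 and 0.359 for untreated double mutant replicate 1 against the others of its group, which differed from each other by 0.152. It was 0.327 and 0.394 for UV-treated daf-16 replicate 3, against 0.255 between replicates 1 and 2. Starved double mutant replicate 4 differed from the rest of its group by 0.254 to 0.258, and those differed among themselves by 0.154 to 0.158. Counts among the 36 genes in comparisons that use these arrays are given with and without them. Changes below are differences of mean log2 signal ± standard error from one limma model over all arrays. A gene is said to have risen or fallen, or to be called, where limma's adjusted p over 22548 probe sets was under 0.05.

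Enzymes of the cycle moved in different directions in starvation. In N2, subunits of NAD-dependent isocitrate dehydrogenase and citrate synthase rose, and the 3 genes of succinyl-CoA synthetase fell. Of the respiratory chain genes among the 36, called subunits of complex I fell on the probe sets used. Called subunits of complexes II and III, cytochrome c and ATP synthase rose on them. Further genes of complexes I and III and of ATP synthase moved in both directions, as given below. In N2, 15 of the 36 genes rose, where 28.3% of all probe sets did, and 8 fell, where 24.7% did. In daf-16, 16 rose beside 27% of all probe sets, and 5 fell beside 24.2%. In daf-2, 9 rose and 9 fell, where 23.3% of all probe sets rose and 19.7% fell. In the double mutant, 17 rose beside 27.7% of all probe sets and 9 fell beside 26.8%, and without the 3 arrays that stood apart 18 rose and 7 fell. The called genes thus made up 63.9%, 58.3%, 50.0% and 72.2% of the 36. The median change of the 36 genes in N2 was 0.12 on the log2 scale, beside -0.03 for all probe sets. In daf-16 it was 0.15 beside -0.05, in daf-2 -0.02 beside 0.03, and in the double mutant 0.13 beside -0.05. Because whole larvae were used, fewer cells of a type and less RNA per cell cannot be told apart in any of these values.

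**Figure D1:**
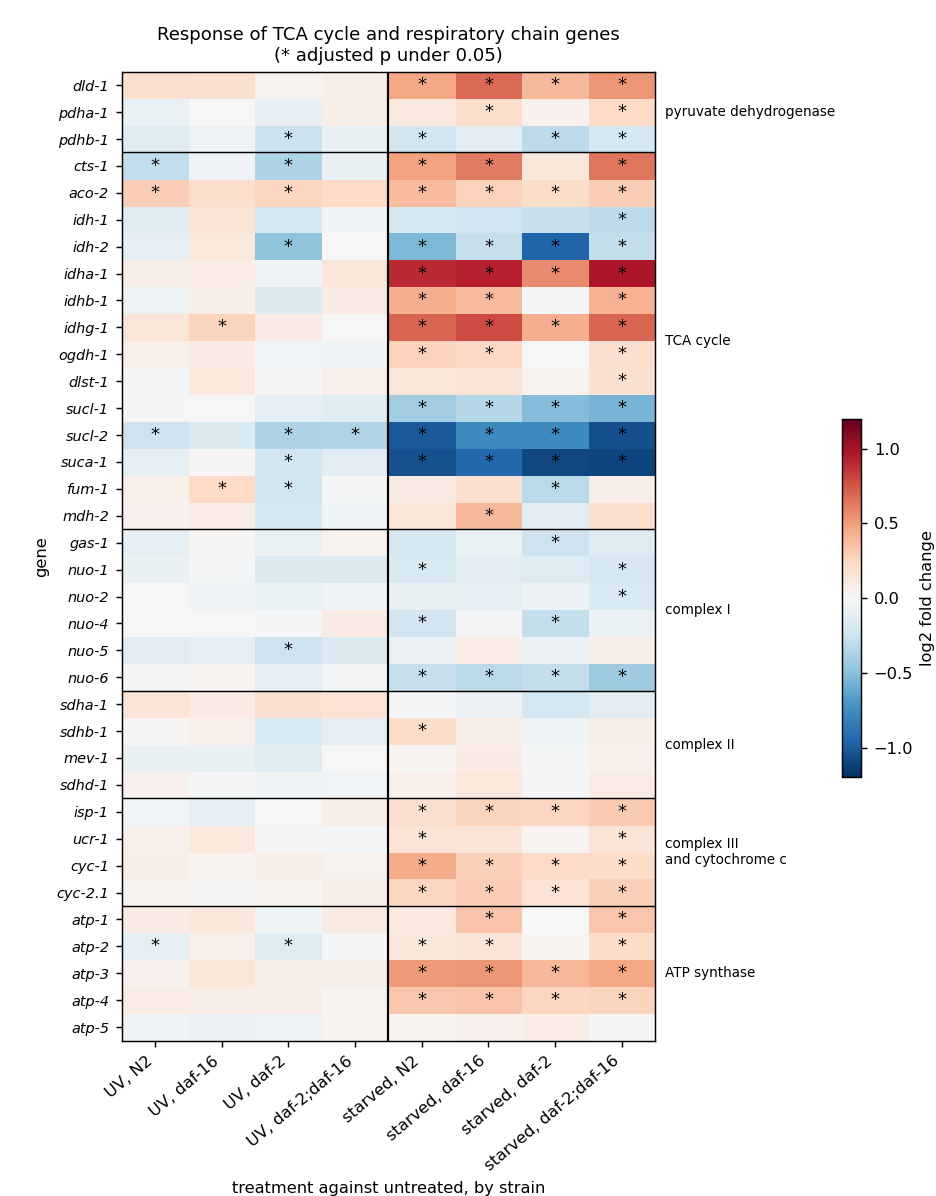
Heat map of the log2 fold change of each of the 36 genes (rows, grouped by role) after UV or in starvation against untreated larvae of the same strain (columns). Red is higher and blue lower on the colour scale, and an asterisk marks an adjusted p under 0.05. The starvation columns hold most asterisks, with the idha-1 and idhg-1 rows red and the sucl-1, sucl-2 and suca-1 rows blue in all 4 strains.

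The entry into the cycle was mixed. The gene dld-1 encodes dihydrolipoyl dehydrogenase, a subunit shared by the pyruvate and 2-oxoglutarate dehydrogenase complexes. Its log2 signal in N2 was 9.33, 9.17 and 9.08 untreated, 9.32, 9.34 and 9.52 after UV, and 9.79, 9.51 and 9.66 in starvation. Starved and untreated arrays did not overlap, and dld-1 rose by 0.46 ± 0.09 (adjusted p = 9e-05). It also rose by 0.68 in daf-16, 0.39 in daf-2, where the groups overlapped by a small margin, and 0.53 in the double mutant. The gene pdhb-1 for the beta subunit of the first enzyme of the complex went the other way. It fell by 0.22 ± 0.07 in N2 (adjusted p = 0.0058), by 0.32 ± 0.07 in daf-2 and by 0.21 ± 0.06 in the double mutant, and its change in daf-16 was -0.12 and not called. Without the 3 arrays that stood apart, the double mutant value was -0.10 with an adjusted p of 0.18. The alpha subunit gene pdha-1 rose by 0.22 in daf-16 and 0.24 in the double mutant. By the mean of its probe sets it was also called higher in N2 (0.18, adjusted p = 0.0074). The daf-16 call of pdha-1 was lost without untreated replicate 1 (adjusted p = 0.069) or starved replicate 2 (adjusted p = 0.16).

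Citrate synthase, encoded by cts-1, makes the first product of the cycle. In N2 the cts-1 probe set read 12.4, 12.23 and 12.28 untreated, between 11.97 and 12.06 after UV, and 12.67, 12.85 and 12.83 in starvation. The 3 conditions formed separate bands, with UV lowest and starvation highest. In daf-2 it read 12.45, 12.35 and 12.35 untreated, 12.03, 12.06 and 11.93 after UV, and 12.52, 12.5 and 12.52 in starvation. Here too the bands were separate, but starved larvae stood close to untreated ones. The starvation change was 0.48 ± 0.06 in N2 (adjusted p = 1e-08), 0.62 ± 0.06 in daf-16 (6.1e-10) and 0.65 ± 0.05 in the double mutant (3.3e-12), as limma's adjusted p. In daf-2 it was 0.13 ± 0.06 with an adjusted p of 0.066, which became 0.038 without untreated daf-2 replicate 1. Aconitase, encoded by aco-2, converts citrate to isocitrate and rose in all 4 strains, by 0.38, 0.28, 0.22 and 0.29 in N2, daf-16, daf-2 and the double mutant. The aco-2 call in daf-16 was lost without starved replicate 1 (adjusted p = 0.12). In daf-2 it was lost without untreated replicate 1 (0.10) or 3 (0.074), or starved replicate 1 (0.074) or 3 (0.22), the last with a value of 0.145.

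**Figure D2:**
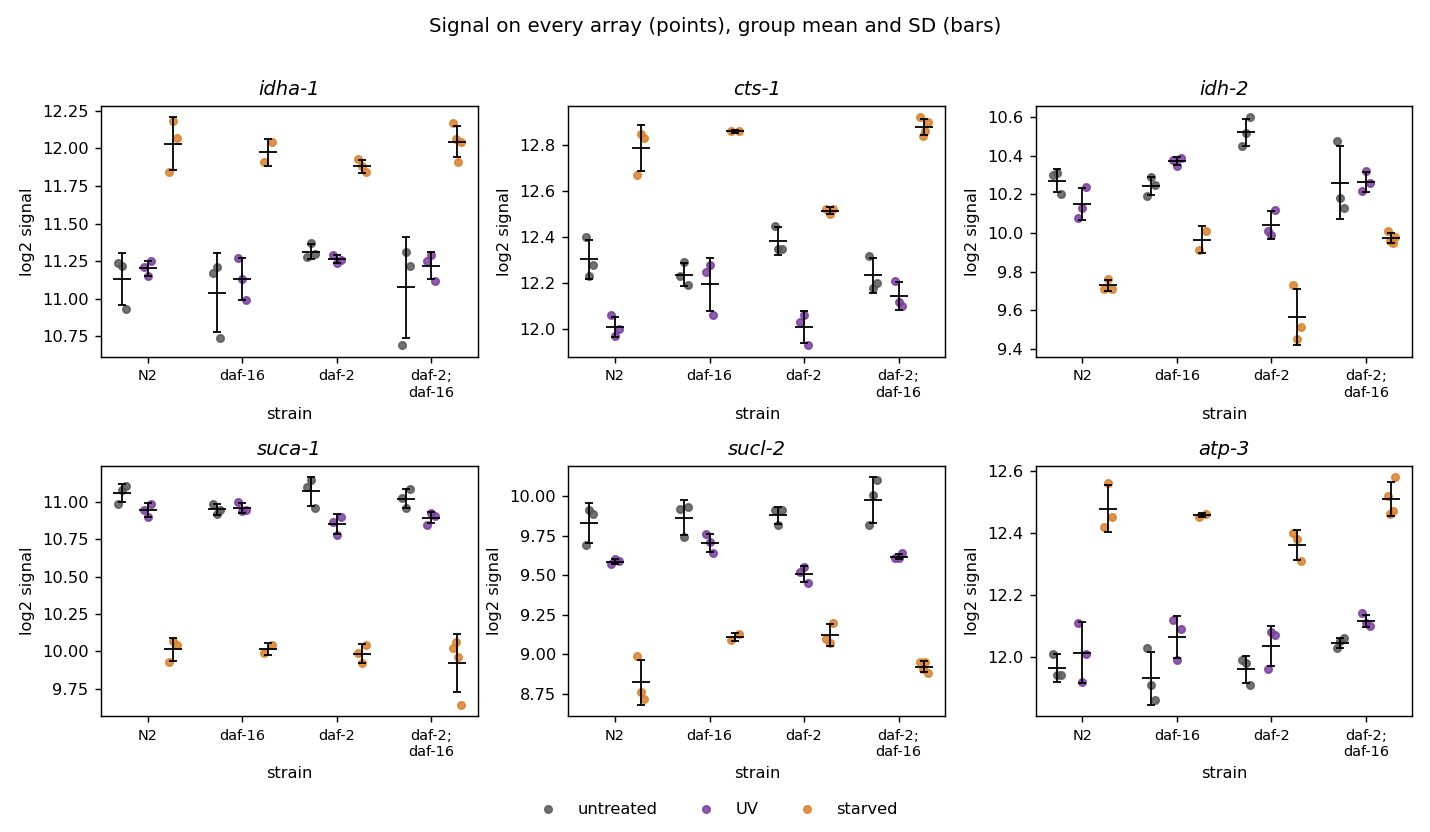
Log2 signal on each array (points) with group mean and standard deviation (bars) for idha-1, cts-1, idh-2, suca-1, sucl-2 and atp-3, by strain and treatment; each panel has its own vertical scale. Starved arrays (orange) lie above untreated ones for idha-1, cts-1 and atp-3, and below them for idh-2, suca-1 and sucl-2, in each of the 4 strains.

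Isocitrate dehydrogenase comes in an NAD-dependent form, which works in the cycle, and an NADP-dependent form, which supplies NADPH. In starvation, the called genes of the first form rose and those of the second fell. For idha-1, the alpha subunit of the NAD-dependent enzyme, the N2 arrays read 11.24, 11.22 and 10.93 untreated, 11.21, 11.15 and 11.25 after UV, and 11.84, 12.18 and 12.07 starved. All starved arrays lay above all others, and idha-1 rose 1.87-fold (log2 change 0.90 ± 0.12, adjusted p = 5.1e-08). It rose by 0.57 ± 0.12 in daf-2, 0.93 ± 0.13 in daf-16 and 0.97 ± 0.11 in the double mutant. The gamma subunit gene idhg-1 rose by 0.70 ± 0.06 in N2 (adjusted p = 2.3e-11), 0.43 in daf-2, 0.78 in daf-16 and 0.70 in the double mutant. A further probe set of idhg-1 also rose in all 4 strains, by 0.66, 0.54, 0.65 and 0.63 in that order. The beta subunit gene idhb-1 rose by 0.43 ± 0.10 in N2, 0.38 ± 0.11 in daf-16 and 0.42 ± 0.09 in the double mutant, and its value in daf-2 was -0.02. The daf-16 call of idhb-1 was lost without starved replicate 2 (adjusted p = 0.066).

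The mitochondrial NADP-dependent enzyme is encoded by idh-2. Its probe set read between 10.20 and 10.31 in untreated N2, 10.08, 10.13 and 10.24 after UV, and 9.71, 9.76 and 9.71 in starvation. The starved arrays were lowest and apart from the rest, while UV and untreated arrays overlapped. In daf-2 it read 10.45, 10.52 and 10.6 untreated, 10.01, 9.99 and 10.12 after UV, and 9.73, 9.45 and 9.51 in starvation, so that the 3 conditions were separate. In starvation idh-2 fell by 0.54 ± 0.07 in N2 (adjusted p = 1.2e-07), by 0.96 ± 0.07 in daf-2 (8.7e-13), by 0.28 ± 0.08 in daf-16 and by 0.29 ± 0.07 in the double mutant. The double mutant value was -0.18 (adjusted p = 0.026) without untreated replicate 1. In daf-16 the call was lost without starved replicate 1 (adjusted p = 0.076). The cytosolic NADP-dependent enzyme gene idh-1 fell in the double mutant on its brightest probe set (-0.31 ± 0.11, adjusted p = 0.019), a call lost without untreated replicate 2 (0.11). Its values in the other strains were between -0.26 and -0.21, and it was called in N2 or daf-2 without starved replicate 2 of that strain (adjusted p = 0.031 and 0.044). A second idh-1 probe set, marked as shared, fell in all 4 strains, by 0.51 in N2, 0.70 in daf-2, 0.40 in daf-16 and 0.66 in the double mutant.

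The 2-oxoglutarate dehydrogenase gene ogdh-1 rose by 0.27 ± 0.07 in N2, 0.25 ± 0.08 in daf-16 and 0.20 ± 0.07 in the double mutant, and its daf-2 value was 0.00 with an adjusted p of 0.98. The ogdh-1 call in daf-16 was lost without untreated replicate 1 (adjusted p = 0.058) or starved replicate 1 (0.08), and that in the double mutant without untreated replicate 1 (0.058) or starved replicate 1 (0.052). The succinyltransferase gene dlst-1 rose in the double mutant (0.18 ± 0.06, adjusted p = 0.012) and had uncalled values of 0.14, 0.15 and 0.04 in N2, daf-16 and daf-2. Without untreated or starved replicate 1, dlst-1 was called in N2 as well (adjusted p = 0.027 and 0.033), and it was called in daf-16 without untreated replicate 3 (0.035).

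Succinyl-CoA synthetase, the next enzyme, showed the deepest falls among the 36 genes in N2. The suca-1 probe set, for the beta subunit of the ATP-forming enzyme, read 10.99, 11.08 and 11.11 in untreated N2, 10.95, 10.9 and 10.99 after UV, and 9.93, 10.07 and 10.04 in starvation. Starved arrays were about a full log2 unit below the others with no overlap. The suca-1 level in starvation was 0.484 of that in untreated N2 (log2 change -1.05 ± 0.07, adjusted p = 6.6e-14). It fell by 1.09 in daf-2 and 0.94 in daf-16, and in the double mutant it read 11.03, 10.96 and 11.09 untreated and 10.02, 10.06, 9.96 and 9.64 in starvation, the last being the array that stood apart (adjusted p = 3.4e-15). The alpha subunit gene sucl-2 read 9.69, 9.91 and 9.89 untreated, 9.57, 9.6 and 9.59 after UV, and 8.99, 8.76 and 8.72 starved in N2. Its 3 conditions did not overlap, with starvation lowest. The starvation change of sucl-2 was -1.01 ± 0.07 in N2 (adjusted p = 1.9e-13), -0.76 in daf-2, -0.75 in daf-16 and -1.05 in the double mutant. The other alpha subunit gene, sucl-1, fell by 0.42, 0.52, 0.34 and 0.56 in the same order of strains. In the double mutant sucl-1 read 11.27, 11.35 and 11.36 untreated and 10.85, 10.84, 10.84 and 10.54 starved, so that the array that stood apart lay lowest but was not needed for the separation. A gene outside the 36, sucg-1 for the GTP-forming beta subunit, had changes of -1.79 ± 0.09 in N2, -1.17 in daf-2, -1.70 in daf-16 and -1.85 in the double mutant, all called. Its fall was smaller in daf-2 than in N2 by 0.61 ± 0.13 (limma's adjusted p of the difference = 0.0014).

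The last steps of the cycle held few calls. Fumarase (fum-1) fell in starved daf-2 (-0.32 ± 0.07, adjusted p = 0.00056), which was -0.21 (0.019) without untreated replicate 1, and had uncalled values of 0.10 in N2, 0.19 in daf-16 and 0.08 in the double mutant. Mitochondrial malate dehydrogenase (mdh-2) rose in daf-16 (0.39 ± 0.11, adjusted p = 0.0038) and was not called elsewhere, with values of 0.15 in N2, -0.13 in daf-2 and 0.20 in the double mutant. By the mean of its probe sets, mdh-2 was also called higher in N2 (0.18, adjusted p = 0.047) and the double mutant (0.21, 0.016). Succinate dehydrogenase, which is also complex II, had 1 call among 4 subunits and 4 strains on the probe sets used. Its iron-sulfur subunit gene sdhb-1 rose by 0.22 ± 0.07 in N2 (adjusted p = 0.0063), and without untreated replicate 3 this was 0.16 with an adjusted p of 0.074. The remaining starvation values of sdha-1, sdhb-1, mev-1 and sdhd-1 lay between -0.21 and 0.13. One array left out added a call for sdha-1 in daf-2 (without starved replicate 2, -0.26, adjusted p = 0.048) and for mev-1 in the double mutant (without untreated replicate 1, 0.14, 0.041). By the mean of its probe sets, sdha-1 was called lower in N2 (-0.19, adjusted p = 0.045) and the double mutant (-0.26, 0.0038). The flavoprotein gene sdha-2, which is not one of the 36, fell by 0.99 ± 0.08 in N2 and by 0.79 to 0.90 in the mutants.

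**Figure D3:**
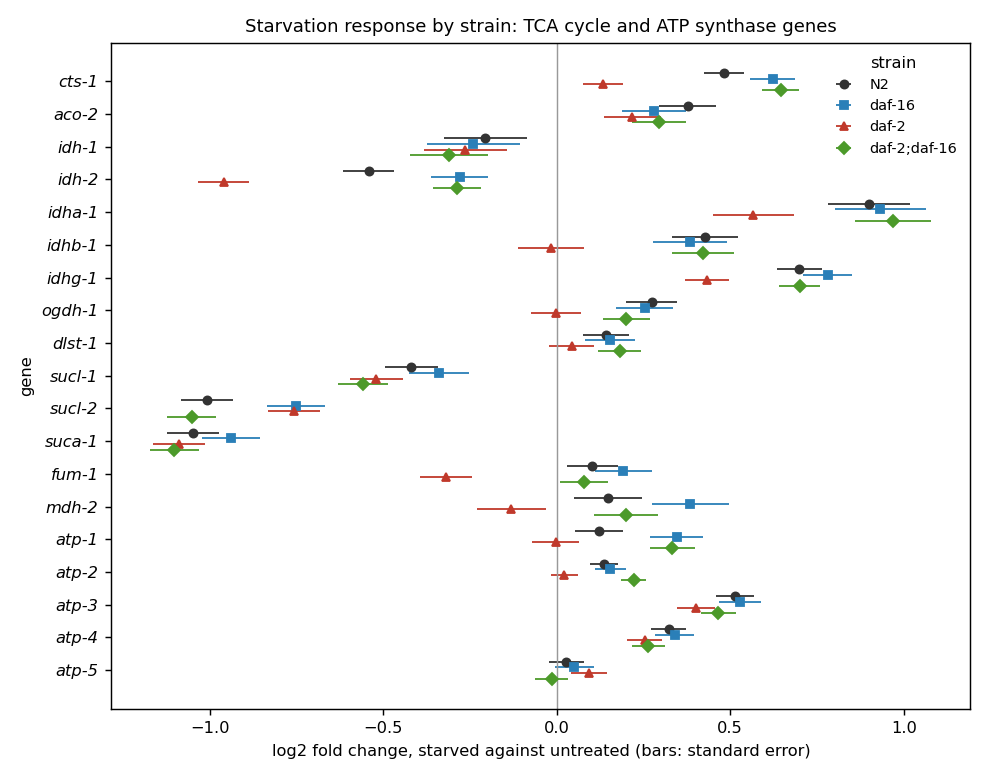
Log2 fold change ± standard error in starvation against untreated larvae for the genes of the TCA cycle and of ATP synthase, with 1 marker per strain. The sucl-1, sucl-2 and suca-1 markers lie below 0 in all strains. The daf-2 markers of cts-1, idhb-1, idh-2 and fum-1 lie below those of the other 3 strains. So do those of further genes, among them idha-1, idhg-1, ogdh-1 and mdh-2.

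None of the 6 complex I subunits among the 36 rose in any strain in starvation. Out of these 6, 3 fell in N2, 3 in daf-2, 1 in daf-16 and 3 in the double mutant. The membrane-arm subunit gene nuo-6 fell in all 4, by 0.28 ± 0.09, 0.32 ± 0.11, 0.28 ± 0.09 and 0.42 ± 0.09 in N2, daf-16, daf-2 and the double mutant. In N2 nuo-6 read 10.79, 10.89 and 10.91 untreated, and starved replicates 2 and 3 read 10.75 and 10.71, while starved replicate 1 lay well below them. Without that array the N2 value was -0.13 (adjusted p = 0.23), and without untreated replicate 3 it was -0.25 (0.051). The nuo-6 calls in daf-16 and daf-2 were lost without starved daf-16 replicate 1 (adjusted p = 0.14) and untreated daf-2 replicate 2 (0.063). The gene nuo-4 fell in N2 (-0.23 ± 0.07, adjusted p = 0.004) and daf-2 (-0.29 ± 0.07, adjusted p = 0.00054), and read -0.02 and -0.08 in daf-16 and the double mutant.

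Other subunits of the complex moved by small amounts. The gene nuo-1, for the subunit that binds NADH, fell in N2 (-0.18 ± 0.07, adjusted p = 0.032) and the double mutant (-0.20 ± 0.07, adjusted p = 0.01). Its N2 call was lost without any one of untreated replicate 1 or 2 or starved replicate 1 or 2 (adjusted p from 0.057 to 0.18), and its double mutant call without starved replicate 4 (0.056). The core subunit gene gas-1 fell in daf-2 (-0.24 ± 0.09, adjusted p = 0.029), a call lost without untreated replicate 1 or 2 or starved replicate 2 or 3 (0.068 to 0.094), and nuo-2 fell in the double mutant (-0.18 ± 0.05, adjusted p = 0.0046). None of the starvation values of nuo-5 were called, and they lay between -0.07 and 0.09. Leaving out 1 array added 2 calls, gas-1 in N2 without starved replicate 2 (-0.30, adjusted p = 0.0093) and nuo-1 in daf-2 without starved replicate 3 (-0.22, 0.019). By the mean of its probe sets, gas-1 was called lower in N2 (-0.15, adjusted p = 0.019) and the double mutant (-0.16, 0.0077).

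Complex III and cytochrome c went the other way. All 4 genes rose in N2 and the double mutant, and 3 of 4 in daf-16 and in daf-2. The Rieske iron-sulfur protein gene isp-1 read 13.05, 13.15 and 13.2 untreated and 13.3, 13.29 and 13.4 starved in N2, with no overlap. It rose by 0.19 ± 0.06 in N2 (adjusted p = 0.0031), 0.26 in daf-2, 0.27 in daf-16 and 0.32 in the double mutant. The gene cyc-1, for the cytochrome subunit of complex III, rose by 0.44 ± 0.08 in N2 (adjusted p = 1.2e-05), 0.24 in daf-2, 0.28 in daf-16 and 0.22 in the double mutant. Its daf-16 call was lost without starved replicate 2 (adjusted p = 0.069) and its daf-2 call without untreated or starved replicate 1 (0.052 and 0.055). Cytochrome c itself, from cyc-2.1, rose by 0.26 ± 0.04, 0.17, 0.29 and 0.28 in the same order of strains. The core protein gene ucr-1 rose by 0.17 ± 0.07 in N2 and 0.16 ± 0.07 in the double mutant (adjusted p = 0.042 and 0.038). Those ucr-1 calls were lost without any one of untreated replicate 2 or 3 or starved replicate 1 or 2 in N2 (0.10 to 0.13), and without any one array of the double mutant other than starved replicate 4 (0.069 to 0.12).

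ATP synthase rose in part. The gene atp-3, for the subunit that confers oligomycin sensitivity, read 12.01, 11.94 and 11.94 untreated, 12.11, 11.92 and 12.01 after UV, and 12.42, 12.56 and 12.45 starved in N2. Starved arrays lay above all others, and UV and untreated arrays overlapped. Its starvation change was 0.51 ± 0.05 in N2 (adjusted p = 6e-10), 0.40 in daf-2, 0.53 in daf-16 and 0.47 in the double mutant. The gene atp-4, for a subunit of the stalk, rose by 0.32 ± 0.05, 0.25, 0.34 and 0.26 in that order. The catalytic subunit gene atp-2 rose by 0.14 ± 0.04 in N2, 0.15 ± 0.04 in daf-16 and 0.22 ± 0.04 in the double mutant, and its daf-2 value was 0.02. The daf-16 call of atp-2 was lost without starved replicate 2 (adjusted p = 0.075). The alpha subunit gene atp-1 rose by 0.35 ± 0.08 in daf-16 and 0.33 ± 0.06 in the double mutant, and had uncalled values of 0.12 and 0.00 in N2 and daf-2. None of the starvation values of atp-5 on its brightest probe set were called, and they lay between -0.02 and 0.09. By the mean of its probe sets, atp-5 was called higher in N2 (0.14, adjusted p = 0.014) and daf-2 (0.13, 0.026).

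Over all 4 strains, 9 of the 36 genes rose in starvation in each strain, where 18.2% of all probe sets did so. These were aco-2, idha-1, idhg-1, dld-1, isp-1, cyc-1, cyc-2.1, atp-3 and atp-4. The 5 genes that fell in each strain were idh-2, sucl-1, sucl-2, suca-1 and nuo-6, and 14.3% of all probe sets fell in each strain. Without the 3 arrays that stood apart, 10 rose in each strain, the 9 and cts-1, and the same 5 fell. Each strain's comparison uses its own untreated arrays. Of these 14 genes, aco-2, cyc-1, idh-2 and nuo-6 lost a call in at least 1 strain when single arrays were left out, as given above.

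Genes of the same machinery that are not among the 36 were mixed in starved N2. Of 23 further complex I genes, 2 rose and 13 fell, with ndab-1 (mitochondrial acyl carrier protein) at -1.07 ± 0.06 and ndub-10 at 0.52 ± 0.08. Of 6 further genes of complex III, 1 rose and 3 fell, namely ucr-2.1 by 0.57 ± 0.06 and among those that fell ucr-2.2 at -0.76 ± 0.06. Of 15 genes of complex IV and its assembly, 6 rose and 7 fell, with the subunit gene cox-4 at 0.48 ± 0.06 and the assembly factor gene cox-11 at -1.32 ± 0.09. Of 12 further ATP synthase genes, 6 rose and 4 fell. They included mai-1, an inhibitor of the enzyme, which rose by 1.11 ± 0.16, and asb-1, a b subunit, which read -1.43 ± 0.13. Of 15 further genes of the cycle and of pyruvate entry, 6 rose and 8 fell, and the pyruvate dehydrogenase kinase gene pdhk-2, whose product inhibits that enzyme, rose by 0.62 ± 0.08. Of 7 genes of ubiquinone synthesis, 2 rose and 3 fell, with coq-1 at 0.86 ± 0.07 and coq-8 at -1.01 ± 0.08. Of 5 adenine nucleotide carrier genes, ant-1.1 rose, by 0.59 ± 0.05, and 0 fell.

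For comparison, of 16 glycolysis genes, 11 rose and 4 fell in starved N2 with a median of 0.29. The hexokinase gene hxk-1 rose by 1.57 ± 0.14. Of 59 mitochondrial ribosomal protein genes, 6 rose and 47 fell with a median of -0.70. Of 14 genes of mitochondrial stress and import, 4 rose and 10 fell with a median of -0.72, and the chaperonin gene hsp-60 fell by 2.34 ± 0.10. In starved N2, 93.8% of the glycolysis and 89.8% of the mitochondrial ribosomal protein genes were called, beside 63.9% of the 36. In daf-16 these shares were 56.2% and 78.0% beside 58.3%. In daf-2 they were 56.2% and 79.7% beside 50.0%, and in the double mutant 50.0% and 91.5% beside 72.2%. Of all probe sets, 53.1%, 51.2%, 43.0% and 54.5% were called in starved N2, daf-16, daf-2 and the double mutant.

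Markers of tissues moved in the same arrays. In starved N2, 8 of 10 muscle markers rose, and their summed linear signal was 30977 to 31866 untreated and 52114 to 55584 starved. In daf-2 this sum went from 34333 to 36074 up to 45865 to 48763, with 6 of 10 called higher. For neurons, 8 of 10 markers rose in N2 and the sum went from 6754 to 6848 up to 14346 to 16892. In daf-2 the neuronal sum was 7126 to 7768 untreated and 11455 to 13068 starved. Intestinal markers summed to 32676 to 35456 untreated and 25617 to 26921 starved in N2, with 3 of 9 higher and 6 lower. Epidermal markers had sums from 24086 to 26902 down to 2782 to 3377 in N2, with 7 of 9 lower and 1 higher. In daf-2 they went from 11759 to 12983 down to 2864 to 3180, with 8 of 9 lower and 1 higher. These markers differed in how far they moved. Over all 36 arrays dpy-7 and rol-6 ranged over 4.73 to 12.2 and 5.78 to 12.91 in log2 signal. The ranges of elt-3 and lin-26 were 9.67 to 10.58 and 9.58 to 10.75. Germ cell markers summed to 952 to 981 and 738 to 802, with 1 of 8 higher and 2 lower. The dimmest markers, the neuronal unc-31 and the germ cell gene nos-2, averaged 4.36 and 4.43, below the array medians of 5.79 to 5.88. The GAPDH control, which reflects how intact the RNA was, had a 3′ minus 5′ log2 signal of 0.726 to 0.911 in untreated and 0.327 to 0.622 in starved N2, and of 0.293 to 0.548 and 0.445 to 0.507 in daf-2. For the actin control the ranges overlapped, with 0.676 to 0.948 and 0.55 to 0.835 in N2, and 0.632 to 0.788 and 0.633 to 0.866 in daf-2. For the ubiquitin control they were 4.747 to 4.953 and 4.931 to 5.06 in N2, and 4.881 to 5.113 and 4.726 to 5.06 in daf-2. The part of these shifts in the changes of the 36 genes was not tested.

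The second question is whether the insulin receptor and DAF-16 alter the starvation response. Its test is the difference between the responses of 2 strains. Between daf-16 and N2, 0 of the 36 genes differed by limma's adjusted p (4 at an unadjusted p under 0.05, and 1 by limma with array weights), where 1.29% of all probe sets were higher in daf-16 and 1.71% lower. The response of daf-2 was lower than that of N2 for 5 genes, beside 8.89% of all probe sets, and higher for 0, beside 5.96%. Against the double mutant it was lower for 7, beside 7.54% of all probe sets, and higher for 0, beside 5.25%, and without the 3 arrays that stood apart it was lower for 8 and higher for 1, sucl-2. Called or not, the difference from N2 was above 0 for 5 of the 36 genes, with a median of -0.10 beside 0.01 over all probe sets. That from the double mutant was above 0 for 9, with a median of -0.11 beside 0.03. These last comparisons share the daf-2 arrays, so their values are set side by side and not counted as separate evidence. In the same difference from N2, 5 of 9 epidermal markers were higher in daf-2 and 1 lower, and 3 of 10 muscle markers were lower. In that from the double mutant, 4 of 10 muscle markers and 1 of 9 epidermal markers were lower, and the part of these markers was not tested.

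Citrate synthase, NADP-dependent isocitrate dehydrogenase and fumarase carried the clearest of these differences. For cts-1 the response of daf-2 was -0.35 ± 0.08 relative to N2 (adjusted p = 0.0027) and -0.51 ± 0.08 relative to the double mutant (adjusted p = 2.5e-05). For idh-2 the differences were -0.42 ± 0.10 (0.005) and -0.67 ± 0.10 (1.6e-05), and for fum-1 -0.42 ± 0.11 (0.0048) and -0.40 ± 0.10 (0.0073). In daf-2 the fum-1 probe set read 10.89, 10.54 and 10.57 untreated and 10.36, 10.38 and 10.31 starved, while in the double mutant it read 10.41, 10.27 and 10.36 untreated and 10.48, 10.43, 10.52 and 10.27 starved. Starved daf-2 arrays lay below all untreated daf-2 arrays, whereas the double mutant groups overlapped. The 6 calls of cts-1, idh-2 and fum-1 held when each array was left out in turn. A difference in response also holds any difference between untreated strains. Untreated daf-2 was above the untreated double mutant by 0.32 for fum-1 and 0.26 for idh-2, and above N2 by 0.25 for idh-2. These untreated differences were less stable, as given below.

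Most other differences were less stable. For idhb-1 they were -0.44 ± 0.14 relative to N2 (adjusted p = 0.022) and -0.44 ± 0.13 relative to the double mutant (0.023). The first idhb-1 call was lost without N2 replicate 1, starved N2 replicate 2, daf-2 replicate 1 or 2, or starved daf-2 replicate 3 (adjusted p from 0.052 to 0.089). The second was lost without daf-2 replicate 1 or 2, starved daf-2 replicate 3 or double mutant replicate 2 (0.061 to 0.09). For idhg-1 both were -0.27 ± 0.09 (0.041 and 0.038), and leaving out any one of 7 arrays ended either call (values from -0.28 to -0.21). For the call against N2 these arrays were N2 replicates 2 and 3, starved N2 replicates 2 and 3, daf-2 replicate 1 and starved daf-2 replicates 2 and 3. For the other call they were daf-2 replicate 1, starved daf-2 replicates 2 and 3, double mutant replicates 1 and 2 and double mutant starved replicates 1 and 3. Its second probe set moved the mean of both to -0.19 and -0.18, not called. Relative to the double mutant alone, atp-1 differed by -0.34 ± 0.09 (0.015) and atp-2 by -0.20 ± 0.05 (0.011). The atp-1 call was lost without daf-2 replicate 1 (adjusted p = 0.085). The atp-2 call held when each array was left out in turn, and was lost in limma without an intensity trend (adjusted p = 0.081). Leaving out 1 array also added calls. The difference from N2 was called for sdhb-1 without N2 replicate 1, daf-2 replicate 2 or starved daf-2 replicate 3 (-0.36 to -0.31). It was called as higher in daf-2 for sucl-2 without untreated or starved N2 replicate 1 (0.32 and 0.33), and against the double mutant without that strain's untreated replicate 1 (0.38, adjusted p = 0.01). For idha-1 the difference from the double mutant was called without that strain's untreated replicate 2 (-0.52, 0.037). By the mean of a gene's probe sets, the response of daf-2 was lower for idha-1 against N2 (-0.37, adjusted p = 0.013) and the double mutant (-0.42, 0.0041). That setting also called ogdh-1 as lower against N2 (-0.23, 0.035). Against the double mutant it called pdha-1 (-0.22, 0.048) and nuo-4 (-0.21, 0.042) as lower and sucl-2 as higher (0.30, 0.04).

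UV changed few of these genes. In N2, 1 of the 36 rose beside 13.6% of all probe sets, and 3 fell beside 15.2%. In daf-16, 2 rose and 0 fell, where 11.3% of all probe sets rose and 7.76% fell, and the same counts were found without the 3 arrays that stood apart. In daf-2, 1 rose and 8 fell, 25% of the 36, beside 25% of all probe sets called in either direction. In the double mutant, 0 rose beside 7.03% and 1 fell beside 7.58%, and without the 3 arrays that stood apart 1 rose and 3 fell. With or without those arrays, 0 of the 36 rose or fell in all 4 strains, as 4.09% and 2.02% of all probe sets did. The median changes were -0.01, 0.05, -0.08 and 0.00 in N2, daf-16, daf-2 and the double mutant, beside 0.03, -0.02, 0.02 and -0.04 over all probe sets.

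**Figure D4:**
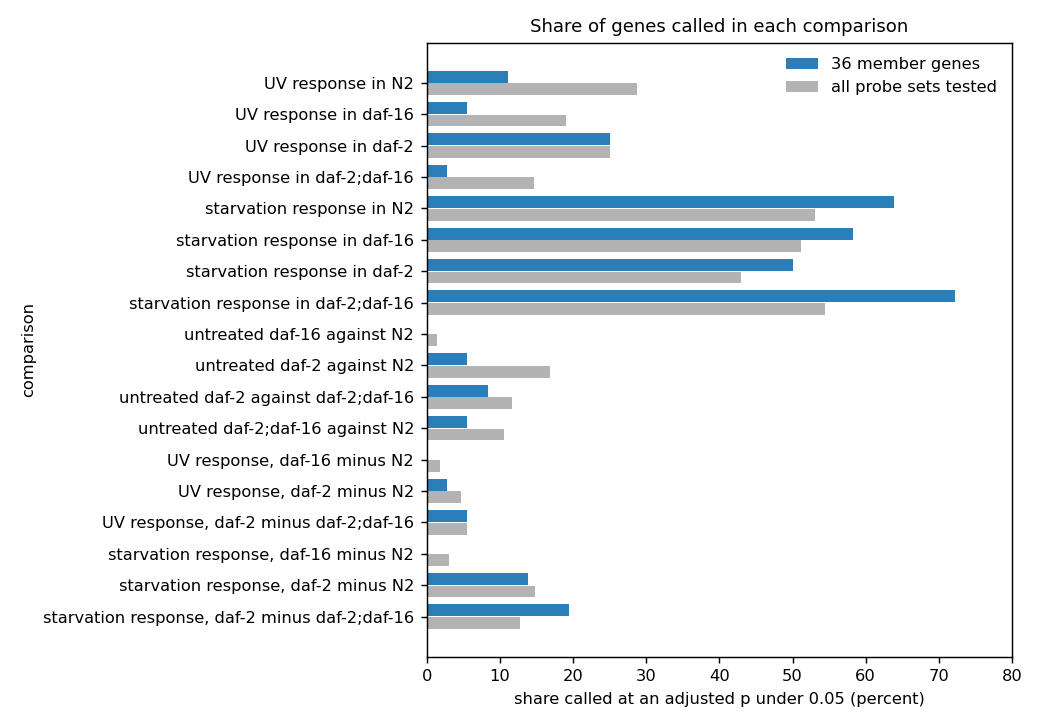
Percent of the 36 genes called (adjusted p under 0.05) beside the percent of all 22548 probe sets called, for each of the 18 comparisons. The genes lie above all probe sets in the 4 starvation responses, and below or level with them in the 4 UV responses. The group means of the 36 genes were all above the array medians, whereas all probe sets include dimmer ones.

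After UV the called genes were mostly enzymes of the cycle. In N2, cts-1 fell by 0.29 ± 0.06 (adjusted p = 0.00016), aco-2 rose by 0.30 ± 0.08 (0.0061), sucl-2 fell by 0.25 ± 0.07 (0.012) and atp-2 fell by 0.11 ± 0.04 (0.032). The aco-2 probe set read 9.51, 9.34 and 9.37 untreated and 9.58, 9.79 and 9.73 after UV, without overlap. The sucl-2 call was lost without untreated replicate 2 or 3 (adjusted p = 0.079 and 0.062), and the atp-2 call without untreated replicate 1 or UV replicate 2 or 3 (0.10 to 0.15). In daf-16, idhg-1 rose by 0.27 ± 0.06 (0.0023) and fum-1 by 0.24 ± 0.07 (0.02). The second idhg-1 probe set read 0.03 there (adjusted p = 0.89), and the fum-1 call was lost without untreated replicate 1, UV replicate 1 or UV replicate 3 (0.054 to 0.085). Leaving out 1 array added a call for idhg-1 in N2 (without untreated replicate 1), aco-2 in daf-16 (without UV replicate 2) and atp-3 in daf-16 (without untreated replicate 1 or UV replicate 2), all higher. By the mean of a gene's probe sets, pdhb-1 was called lower in N2 (-0.24, adjusted p = 0.0081). That setting also called ogdh-1 (0.15, 0.038) and atp-4 (0.15, 0.027) higher in N2, and lost the idhg-1 call in daf-16 (0.15, 0.18).

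In daf-2 after UV, idh-2 fell by 0.48 ± 0.07 (adjusted p = 4.5e-06), cts-1 fell by 0.37 ± 0.06 (5.2e-06) and sucl-2 fell by 0.37 ± 0.07 (0.00023). UV-treated and untreated daf-2 arrays did not overlap for these 3, which were the largest called falls. How many of all probe sets showed no overlap was not counted. Smaller falls were those of pdhb-1 (-0.26), nuo-5 (-0.25), fum-1 (-0.22), suca-1 (-0.22) and atp-2 (-0.16), and aco-2 rose by 0.26 ± 0.08. The fum-1 value was -0.11 without untreated replicate 1 (adjusted p = 0.37), and that call was also lost without UV replicate 2 or 3 (0.11 and 0.088). The aco-2 call was lost without untreated or UV replicate 1 (0.07 and 0.11), or without untreated or UV replicate 3 (adjusted p = 0.05 after rounding in both). The suca-1 call was lost without untreated replicate 1 or 2 or UV replicate 1 or 2 (0.051 to 0.14). In the double mutant, sucl-2 averaged 9.98 ± 0.14 untreated (SD, n = 3), with 9.82 on the lowest array, and read 9.61, 9.61 and 9.64 after UV, a change of -0.36 ± 0.07 (adjusted p = 0.00089). Leaving out 1 array added a call for sdhb-1 in daf-2 (lower, without untreated replicate 2), and in the double mutant for aco-2 (higher, without untreated replicate 1 or UV replicate 2) and nuo-1 (lower, without UV replicate 3). The mean of a gene's probe sets added idh-1 (-0.31, adjusted p = 0.0023), idhb-1 (-0.17, 0.046) and gas-1 (-0.16, 0.032) as lower in daf-2, and atp-4 as higher (0.14, 0.044). In the double mutant it added aco-2 as higher (0.24, 0.043) and nuo-5 as lower (-0.21, 0.017). In the same arrays 6 of 9 epidermal markers fell after UV in N2, daf-16 and daf-2, and 2 of 9 in the double mutant, and 1 rose in each strain. Their summed signal in UV-treated N2 was 6438 to 9323. Of 10 neuronal markers, 7 fell in N2, 6 in daf-2, 3 in daf-16 and 5 in the double mutant, and 0 rose. The neuronal sum was 6754 to 6848 in untreated and 4899 to 5545 in UV-treated N2. The part of these markers in the values above was not tested.

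Differences between the UV responses of strains were few. Between daf-16 and N2, 0 of the 36 genes differed by limma's adjusted p (3 at an unadjusted p under 0.05, and 2 by limma with array weights), where 1.04% of all probe sets were higher in daf-16 and 0.807% lower, and 2 did without the 3 arrays that stood apart. One array left out added cts-1 (without UV-treated daf-16 replicate 3, 0.32) or atp-2 (without UV-treated N2 replicate 1, 0.19). The response of daf-2 was lower than that of N2 for idh-2 (-0.36 ± 0.10, adjusted p = 0.038) and higher for 0 genes, where 2.57% of all probe sets were lower and 2.09% higher. That call was lost without any one of N2 replicate 2 or 3, UV-treated N2 replicate 2 or 3, daf-2 replicate 2 or 3, or UV-treated daf-2 replicate 1 or 2 (adjusted p from 0.055 to 0.13). Relative to the double mutant, the response of daf-2 was lower for idh-2 (-0.48 ± 0.10, 0.0025) and cts-1 (-0.28 ± 0.08, 0.033) and higher for 0 genes, where 2.75% of all probe sets were lower and 2.70% higher. Without the 3 arrays that stood apart, the counts were again 2 and 0. In the same difference 4 of 9 epidermal and 2 of 10 muscle markers were lower in daf-2, and in that from N2 3 of 9 and 1 of 10, and their part was not tested. The cts-1 call was lost without any one of 5 arrays (0.095 to 0.12), namely daf-2 replicate 1, UV-treated daf-2 replicate 3, double mutant UV replicate 1, and double mutant replicates 2 and 3. The inhibitor gene mai-1 rose after UV in all 4 strains, by 0.88, 0.76, 1.08 and 0.85 in N2, daf-16, daf-2 and the double mutant.

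Few of the 36 genes differed between untreated strains. Between daf-16 and N2, 0 were called by limma (2 at an unadjusted p under 0.05, and 1 in a limma model of only those groups), where 0.825% of all probe sets were higher in daf-16 and 0.603% lower. Between daf-2 and N2, 2 were higher beside 9.97% of all probe sets, and 0 lower beside 6.81%. These were idh-2, by 0.25 ± 0.07 (adjusted p = 0.015), and mev-1 for the cytochrome b subunit of complex II, by 0.18 ± 0.06 (0.037). The idh-2 call was lost without N2 or daf-2 replicate 3 (0.092 and 0.084), and the mev-1 call without N2 or daf-2 replicate 1 or 2 (0.083 to 0.20). One array left out added sdhb-1 as higher (0.27 without N2 replicate 1 and 0.23 without daf-2 replicate 2, adjusted p = 0.0059 and 0.044) and atp-1 as lower (-0.24 without daf-2 replicate 1, 0.016). In untreated daf-2, 6 of 9 epidermal markers were lower than in N2 and 1 higher, 3 of 9 intestinal markers were lower and 2 higher, and the part of these markers was not tested. Between daf-2 and the double mutant, 3 were higher beside 5.75% of all probe sets and 0 lower beside 5.84%. They were fum-1 (0.32 ± 0.07, adjusted p = 0.0026), idh-2 (0.26 ± 0.07, 0.016) and atp-2 (0.13 ± 0.04, 0.028). Each of these calls was lost without at least one array: fum-1 without daf-2 replicate 1 (0.21, adjusted p = 0.065), idh-2 without daf-2 replicate 3 or double mutant replicate 2 or 3 (0.098 to 0.16), and atp-2 without daf-2 replicate 1 or 3 or double mutant replicate 2 or 3 (0.07 to 0.17). Without the 3 arrays that stood apart 5 were higher, with cts-1 (0.19) and idhb-1 (0.34) added. Both were also called without double mutant replicate 1 alone, and idhb-1 without daf-2 replicate 3 (0.36, adjusted p = 0.019).

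Between the double mutant and N2, atp-1 (-0.21 ± 0.07, adjusted p = 0.05 after rounding) and atp-2 (-0.14 ± 0.04, 0.015) were lower and 0 were higher, beside 4.1% and 6.45% of all probe sets. Without the 3 arrays that stood apart 4 were lower and 2 higher, the added calls being fum-1 (-0.24), pdha-1 (-0.22), sucl-2 (0.23) and sdhb-1 (0.19, adjusted p = 0.05 after rounding). Of these, fum-1, pdha-1 and sucl-2 were also called without double mutant replicate 1 alone, and sdhd-1 was called as higher without N2 replicate 1 (0.22, adjusted p = 0.027). The atp-1 call was lost without any one array of N2 or without double mutant replicate 2 or 3 (0.056 to 0.21), and the atp-2 call without N2 replicate 1 or double mutant replicate 2 or 3 (0.068 to 0.14). Of 16 glycolysis genes, 10 were higher in daf-2 than in N2 and 0 lower, with pyk-2 (pyruvate kinase) at 0.78 ± 0.08, and cytosolic malate dehydrogenase mdh-1 was higher by 0.60 ± 0.06. As a sign of RNA quality, the 3′ minus 5′ log2 signal of the GAPDH control ranged over 0.726 to 0.911 on untreated N2 arrays, over 0.293 to 0.548 on untreated daf-2 arrays, and on untreated double mutant arrays over 0.607 to 0.713. For the actin control these ranges overlapped (0.676 to 0.948, 0.632 to 0.788 and 0.557 to 0.806). For the ubiquitin control they were 4.747 to 4.953, 4.881 to 5.113 and 4.908 to 5.133. Epidermal markers were lower in the double mutant than in N2 for 3 of 9, with sums of 10540 to 23652. The part of RNA quality or of these markers in these values was not tested.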

How the data were processed

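Per the submitters' processing notes, the authors used Affymetrix Power Tools. Its version, the algorithm and the normalization were not given in the sources used here. Deposited were log2 values (2.63 to 14.9) of 22625 probe sets on 36 arrays. The log2 scale was read from that range. Array medians were nearly equal, 5.79 to 5.88, and values were used as deposited.

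After 77 control probe sets were left out, 22548 were tested. Names came from the platform annotation, updated by gene identifier: 1 symbol for 20766 probe sets, several for 887, and none for 895. For 65 symbols the annotated name was retained. The 36 genes, the rule for naming them and the comparison lists were chosen with earlier results of these data known. All 36 were described, with values for each array for up to 3 of the largest called changes in each direction of a comparison and for the gene nearest its role's median; further array values were chosen after they were seen; at most 2 genes in each direction were named from each other list.

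Group means were compared in R 4.3.3 with limma 3.58.1 (1 mean for each of 12 groups, moderated variances with an intensity trend, 24 residual degrees of freedom). Adjusted p-values are those of Benjamini and Hochberg over all probe sets of a comparison. The code was tested on simulated data. Replicate numbers are given in the labels, and no comparison had all same-numbered arrays deviating together with correlations over 0.1, so arrays were not treated as paired. For UV in daf-16 the correlations were 0.361, 0.0909 and 0.178, and each UV array matched its same-numbered untreated array best. For starvation in daf-2 they were 0.435, 0.0701 and 0.337, so some pairing is possible there. Alternatives were array weights, median centring, quantile normalization, no intensity trend, the replicate number as a block, leaving out dim or shared probe sets, the mean of a gene's probe sets, a model of only the groups compared, and leaving out each array. Leaving out the 3 arrays that stood apart was chosen after seeing the data.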

Additional observations from a re-analysis of the deposited data

Results flagged for a closer look

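One group, the starved double mutant (daf-2;daf-16), had enough arrays (4) to look for single arrays far from the rest, and chance alone marks about 1 in 20 groups. Of the 36 genes, 6 had such an array there, and the share over all probe sets was not counted. The rule sets the gap against the range of the arrays, so that a small difference can be marked. Replicate 4, the array that stood apart over all probe sets, was low for sucl-1 (10.54, the others 10.84 to 10.85) and pdhb-1 (10.87, the others 11.12 to 11.16). It was also low for nuo-6 (10.41, the others 10.5 to 10.51) and ucr-1 (11.5, the others 11.73 to 11.77). For atp-2 it was high by a small margin (13.55, the others 13.52). Replicate 1 was high for sdhb-1 (11.88, the others 11.78 to 11.79).

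Of 216 differences between the responses of strains that were tested, 15 were called by limma, all with daf-2 as one of the strains. After UV these were idh-2 against N2 (-0.36) and against the double mutant (-0.48), and cts-1 against the double mutant (-0.28). In starvation against N2 they were cts-1 (-0.35), idh-2 (-0.42), idhb-1 (-0.44), idhg-1 (-0.27) and fum-1 (-0.42). In starvation against the double mutant they were cts-1 (-0.51), idh-2 (-0.67), idhb-1 (-0.44), idhg-1 (-0.27), fum-1 (-0.40), atp-1 (-0.34) and atp-2 (-0.20). All 15 were lower in daf-2, and the comparisons of one treatment share the daf-2 arrays. The called share of the 36 genes was 2.78% and 5.56% after UV (against N2 and the double mutant), beside 4.66% and 5.45% of all probe sets, and 13.9% and 19.4% in starvation, beside 14.8% and 12.8%.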

How the results depend on the processing

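No call of the 36 genes changed direction under any setting. Counts of called genes that moved by more than 1.5 times are given here, and the cause was not tested unless stated. Array weights gave 16 for UV in daf-2, 5 for UV in the double mutant, 10 for untreated daf-2 against N2, 9 for daf-2 against the double mutant and 9 for the double mutant against N2. They also gave differences of 2 (UV, daf-16 minus N2), 8 (UV, daf-2 minus the double mutant), and in starvation 1 (daf-16 minus N2), 10 (daf-2 minus N2) and 13 (daf-2 minus the double mutant). Without shared probe sets 13 genes were left, which by itself lowers counts: UV 0 in N2, 2 in daf-2 and 0 in the double mutant; starvation 9, 7, 8 and 10 in N2, daf-16, daf-2 and the double mutant; 0 for the untreated double mutant against N2; and differences of daf-2 of 1 (UV) and 3 (starvation) against the double mutant and 2 (starvation) against N2. The mean of a gene's probe sets gave 7, 1 and 3 for UV in N2, daf-16 and the double mutant. A model of only the groups compared gave 0 for UV in daf-16, 1, 0 and 0 for untreated daf-16 against N2, daf-2 against the double mutant and the double mutant against N2, and 1 for the UV difference of daf-2 and the double mutant. No intensity trend gave 1 for untreated daf-2 against N2, 0 for the double mutant against N2, and UV differences of 0 and 1 for daf-2 against N2 and the double mutant; median centring gave the same UV differences, 0 and 1. Quantile normalization gave 4 for UV in daf-16. Leaving out the dimmest 33.3% of probe sets gave 3 for UV in the double mutant and 4 for the untreated double mutant against N2. Without the 3 arrays that stood apart, UV in the double mutant gave 4, untreated daf-2 against the double mutant 5, the double mutant against N2 6, and the UV difference of daf-16 and N2 2. With the replicate number as a block, UV in the double mutant gave 2 calls rather than 1, and no other count moved by over 1.5 times. Leaving out each array gave, for UV in N2, daf-16, daf-2 and the double mutant, 3 to 4, 1 to 4, 6 to 9 and 1 to 2; for starvation 20 to 23, 17 to 22, 16 to 19 and 24 to 25. For untreated daf-16, daf-2 and the double mutant against N2 it gave 0 to 0, 1 to 2 and 0 to 5, and 1 to 5 for daf-2 against the double mutant. For the UV differences it gave 0 to 1 (daf-16 minus N2), 0 to 1 (daf-2 minus N2) and 1 to 2 (daf-2 minus the double mutant), and for those of starvation 0 to 0, 3 to 6 and 4 to 7. The lowest group mean among the 36 genes was 8.60, above the array medians of 5.79 to 5.88, and the number of arrays limits the precision.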
